A study of Mus musculus with 39 samples.

Results

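The genes of the inflammasome and of the main proinflammatory cytokines were followed in microglia of mice that breathed normoxic air or were exposed to chronic intermittent hypoxia. They are 10 genes, chosen by symbol: the cytokine genes Il1a, Il1b, Il18, Il6 and Tnf, the receptor antagonist gene Il1rn, and the inflammasome genes Nlrp3, Pycard, Casp1 and Gsdmd. Each was found once among the 46333 genes of the female table and once among the 54532 genes of the male table, and all 10 passed the filter on low counts in every comparison.

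Microglia, the resident macrophages of the brain, were isolated from the cerebrum with anti-CD11b magnetic beads after enzymatic digestion at body temperature, and their RNA was sequenced as bulk mRNA libraries. The mice were offspring of C57BL/6J females and 5XFAD males. 5XFAD offspring carry human transgenes with familial Alzheimer's disease mutations, driven by the Thy1 promoter, which is active in neurons, and WT offspring do not. Normoxia (NX) was 21% O2, and chronic intermittent hypoxia (CIH), a model of sleep apnea, lowered O2 to 6.5% at intervals of 90 s for 8 h per day per the labels. The study's methods give another low level and another number of hours. Exposure started at 4 months of age in all mice and lasted 6 months in females, harvested at 10 months, and 4 months in males, harvested at 8 months. There were 39 libraries, 5 in each group of F WT CIH, F 5XFAD NX, F 5XFAD CIH, M WT NX, M WT CIH, M 5XFAD NX and M 5XFAD CIH and 4 in F WT NX. Sex, age, length of exposure and the deposited table change together and cannot be told apart, so each comparison stays within a sex.

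Microglia make interleukin-1 and tumor necrosis factor when a danger signal reaches their pattern recognition receptors. The first signal raises transcription of the cytokine genes and of the sensor NLRP3 through the factor NF-kB. The second assembles NLRP3, the adaptor ASC (gene Pycard) and caspase-1 into the inflammasome, which cleaves the precursors of interleukin-1 beta and interleukin-18 and opens the pore protein gasdermin D. RNA levels report on the first of these steps alone, since cleavage leaves no trace in them.

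Promoter windows are given for Il1b and Tnf, which rose in 5XFAD microglia under CIH, and for Il1a and Il6, which fell in both sexes under CIH. RefSeq windows on GRCm38.p6 matched 9 of the 10 genes, and the 250 bases before the annotated start are printed 5′ to 3′ on the gene's own strand. Capitals mark the letters TATAAA, the AP-1 motif TGANTCA and the NF-kB consensus motif, each searched on both strands. The windows lie at chr2:129371140-129371389, reverse strand (Il1b), chr17:35202008-35202257, reverse strand (Tnf), chr2:129309973-129310222, reverse strand (Il1a) and chr5:30012864-30013113, forward strand (Il6).
Il1b: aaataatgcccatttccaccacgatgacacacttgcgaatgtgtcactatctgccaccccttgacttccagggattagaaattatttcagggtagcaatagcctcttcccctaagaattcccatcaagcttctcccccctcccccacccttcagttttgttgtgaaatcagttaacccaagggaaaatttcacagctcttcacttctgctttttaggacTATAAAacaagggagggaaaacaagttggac
Tnf: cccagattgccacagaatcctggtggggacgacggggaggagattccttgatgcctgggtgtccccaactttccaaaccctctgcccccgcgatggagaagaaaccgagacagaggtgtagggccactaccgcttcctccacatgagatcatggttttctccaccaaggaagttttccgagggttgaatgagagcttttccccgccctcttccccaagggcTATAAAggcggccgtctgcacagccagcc
Il1a: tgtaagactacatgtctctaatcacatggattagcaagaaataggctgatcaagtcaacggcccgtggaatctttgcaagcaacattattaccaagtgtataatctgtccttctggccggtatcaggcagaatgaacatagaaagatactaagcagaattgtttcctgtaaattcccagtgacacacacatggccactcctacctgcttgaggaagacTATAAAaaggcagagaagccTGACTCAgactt
Il6: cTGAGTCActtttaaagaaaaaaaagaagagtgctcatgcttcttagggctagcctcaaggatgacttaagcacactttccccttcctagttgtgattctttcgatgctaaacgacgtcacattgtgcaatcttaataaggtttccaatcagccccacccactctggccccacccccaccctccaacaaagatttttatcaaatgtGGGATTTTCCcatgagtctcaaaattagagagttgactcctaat
TATAAA began 31 bases before the start in Il1b, 29 bases before it in Tnf and 32 bases before it in Il1a. It was found between 25 and 35 bases before the start, on the gene's strand, in 1.75% of the 32851 windows of the table, and in 12.4% of them anywhere. Of the 9 genes with windows, 3 held it there. Il1rn, which also rose in 5XFAD microglia under CIH, held TATAAA in none of its windows. Il1a also held TGACTCA, which began 12 bases before the start, and Il6 held TGAGTCA 249 bases and the NF-kB match GGGATTTTCC 44 bases before it. The AP-1 motif was found in 6.75% and the NF-kB motif in 7.25% of all windows. A match is a run of letters and was not tested as a site.

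Library totals ranged from 14731683 to 25906121 counts in females and from 13457293 to 23095627 in males, so that a level of 1 CPM (read counts scaled by library total and TMM factor over a table) rests on 15 reads in females and 13 in males where depth was lowest. The microglia markers Cx3cr1, P2ry12, Tmem119, Csf1r, Sall1, Itgam and Aif1 were detected in every library, with 57841 to 143254 reads of Cx3cr1 in females and 39488 to 153965 in males. Of these 7, 4 fell in 5XFAD females under NX, 5 under CIH, 5 in males under NX and 4 under CIH, where Aif1 rose, beside the 13.9%, 51.9%, 17.8% and 49% of all genes that passed FDR in either direction in these comparisons. P2ry12, a homeostatic microglial receptor, did not overlap between genotypes in any comparison (log2FC -0.85 and -1.07 in females and -1.22 and -1.03 in males under NX and CIH). The part of this in the falls of Il6, Il1a, Il18 and Gsdmd was not tested. Neutrophils and monocytes also carry CD11b. The 8 neutrophil markers summed to 10.3 to 1263 CPM and the 5 monocyte markers to 14.4 to 105 CPM over all libraries. In females 2 libraries stood apart. F 5XFAD NX 4 lay at -44.1 on the first principal component of the female NX libraries, within the span of WT NX (-53.0 to -31.3), whereas its 4 fellow 5XFAD NX females were found at 31.7 to 67.9. F WT NX 1 had the highest level of Il1b, Il1rn and Tnf in its group, with neutrophil markers at 222 CPM against 41.6 to 74.5 CPM in the other WT NX females and monocyte markers at 77.1 CPM against 29.9 to 44.0 CPM. The neutrophil markers of F 5XFAD NX 4 summed to 245 CPM, against at most 61.4 CPM in the other 5XFAD NX females. Ly6g, a defining neutrophil marker, was at 0 in 4 female libraries. The part of these cells in the values of either library was not tested. Where either library decided a call of the 10 genes, values are given with and without it.

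Per length of transcript, Gsdmd was the most abundant of the 10 genes in both tables and Il1rn the least. The level of Gsdmd, the gene of the pore protein, had a median of 117 FPKM (59.3 to 147) over the 19 female and 77.1 FPKM (50.7 to 111) over the 20 male libraries, with the lowest and highest library in parentheses. In females the next in order was Pycard at 56.3 FPKM (49.4 to 68.9), followed by Il1a, Nlrp3, Il1b, Casp1 and Il18 with medians of 38.8, 36.4, 30.6, 30.1 and 25.3 FPKM. Tnf had a median of 13.7 FPKM, Il6 of 5.36 FPKM and Il1rn of 2.05 FPKM. Of the neighbours in this order, only Tnf and Il6 had ranges that did not overlap over the 19 libraries. In males the order was Gsdmd, Casp1 (34.5 FPKM), Pycard (34.0), Il18 (33.8), Il1a (29.4), Nlrp3 (21.6), Il1b (12.3), Tnf (9.58), Il6 (2.66) and Il1rn (0.422), and only Gsdmd and Casp1 were neighbours whose ranges did not overlap. FPKM levels and orders were not compared between the tables, which differ in the scaling of libraries and in the gene lengths behind FPKM. The order within a table depends on these lengths. Genes on the other strand share 11.2% of the exon bases of Il1a, 1.31% of those of Il1b and 12.8% of those of Pycard. Shares of exon bases, here and below, are for GENCODE gene models, whose exon bases for these genes equal the lengths in the male table. The female table has other lengths, and shares for its gene models were not computed. Whether the counting used strand is not given in the sources used here.

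The question put to the genotypes was how 5XFAD microglia differ from WT under each air. Under CIH, Il1b, Tnf and Il1rn rose in 5XFAD microglia of both sexes, whereas Il6, Il1a and Gsdmd fell. DEGs are genes with FDR below 0.05 and an absolute log2FC above 1, where FDR is the p-value of edgeR's quasi-likelihood test after Benjamini-Hochberg adjustment over all genes tested. Genes are said to rise or fall where FDR was below 0.05. Under CIH 3 of the 10 genes were DEGs in females, against 13% of all genes tested, and 4 of 10 in males, against 18.7%. Under NX 1 of 10 was a DEG in females, against 5.99% of all genes, and 2 of 10 in males, against 8.25%. By FDR alone, 7 of 10 passed under CIH in each sex (all genes, 51.9% in females and 49% in males), and under NX 1 of 10 passed in females (all genes, 13.9%) and 4 of 10 in males (all genes, 17.8%). The median log2FC of the 10 genes was 0.09 in females and 0.04 in males under CIH and -0.35 in females and -0.24 in males under NX, beside -0.02, -0.06, -0.02 and 0.02 for all genes tested. Rises and falls were mixed within the list.

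Il1b encodes the precursor of interleukin-1 beta. In the CIH groups it was at 27.2, 28.0, 34.0, 32.6 and 20.1 CPM in F WT CIH and at 32.0, 59.0, 60.4, 117 and 117 CPM in F 5XFAD CIH. All but the lowest 5XFAD library were above every WT library, and the fold was 2.71 (log2FC 1.44 ± 0.30 (SE), FDR = 0.00123). In males it was at 22.1, 24.3, 17.3, 17.2 and 17.6 CPM in M WT CIH and at 76.2, 39.9, 39.5, 31.9 and 23.9 CPM in M 5XFAD CIH, again with the lowest 5XFAD library inside the WT range (fold 2.19, log2FC 1.13 ± 0.25 (SE), FDR = 0.00173). Under NX no difference passed the test. F WT NX libraries were at 142, 22.5, 22.3 and 26.8 CPM and F 5XFAD NX libraries at 64.6, 99.6, 51.9, 39.3 and 151 CPM (log2FC 0.62 ± 0.61 (SE), FDR = 0.499). The first of these WT libraries, F WT NX 1, lay above 4 of the 5 5XFAD libraries, and without it the log2FC was 1.77 with FDR = 0.0414. In males the NX groups overlapped, with 13.2 to 43.8 CPM in WT and 18.9 to 42.4 CPM in 5XFAD (log2FC -0.16 ± 0.31 (SE), FDR = 0.798).

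Tnf, the gene of tumor necrosis factor, rose in the same groups as Il1b. Under CIH it was at 19.7, 13.3, 19.9, 14.1 and 14.4 CPM in F WT CIH and at 19.7, 26.0, 36.3, 83.0 and 84.8 CPM in F 5XFAD CIH (fold 3.07, log2FC 1.62 ± 0.37 (SE), FDR = 0.00241). The 5XFAD libraries were spread over a wider range than the WT libraries, and the lowest of them lay inside the WT range. In males Tnf was at 26.6, 6.52, 9.50, 4.55 and 7.61 CPM in M WT CIH and at 55.1, 14.5, 36.2, 15.6 and 38.1 CPM in M 5XFAD CIH (fold 2.97, log2FC 1.57 ± 0.46 (SE), FDR = 0.0113). M WT CIH 1, at 26.6 CPM, stood above the other WT CIH males and above 2 of the 5XFAD CIH libraries, and without it the log2FC was 2.21 (FDR = 0.000402). Under NX, F WT NX libraries were at 32.3, 15.3, 15.4 and 16.4 CPM and F 5XFAD NX libraries at 40.0, 56.4, 18.8, 25.1 and 109.9 CPM (log2FC 1.35 ± 0.48 (SE), FDR = 0.0850). The 2 lowest 5XFAD libraries lay below F WT NX 1, the highest WT library, and the difference did not pass the test. Without F WT NX 1 the log2FC was 1.68 (FDR = 0.0749), and FDR passed in 1 of the 9 cases with a library left out, without F 5XFAD NX 4 (log2FC 1.48, FDR = 0.0263). M WT NX (12.4 to 24.5 CPM) and M 5XFAD NX (11.3 to 20.6 CPM) overlapped (log2FC -0.08 ± 0.24 (SE), FDR = 0.868).

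**Figure D1:**
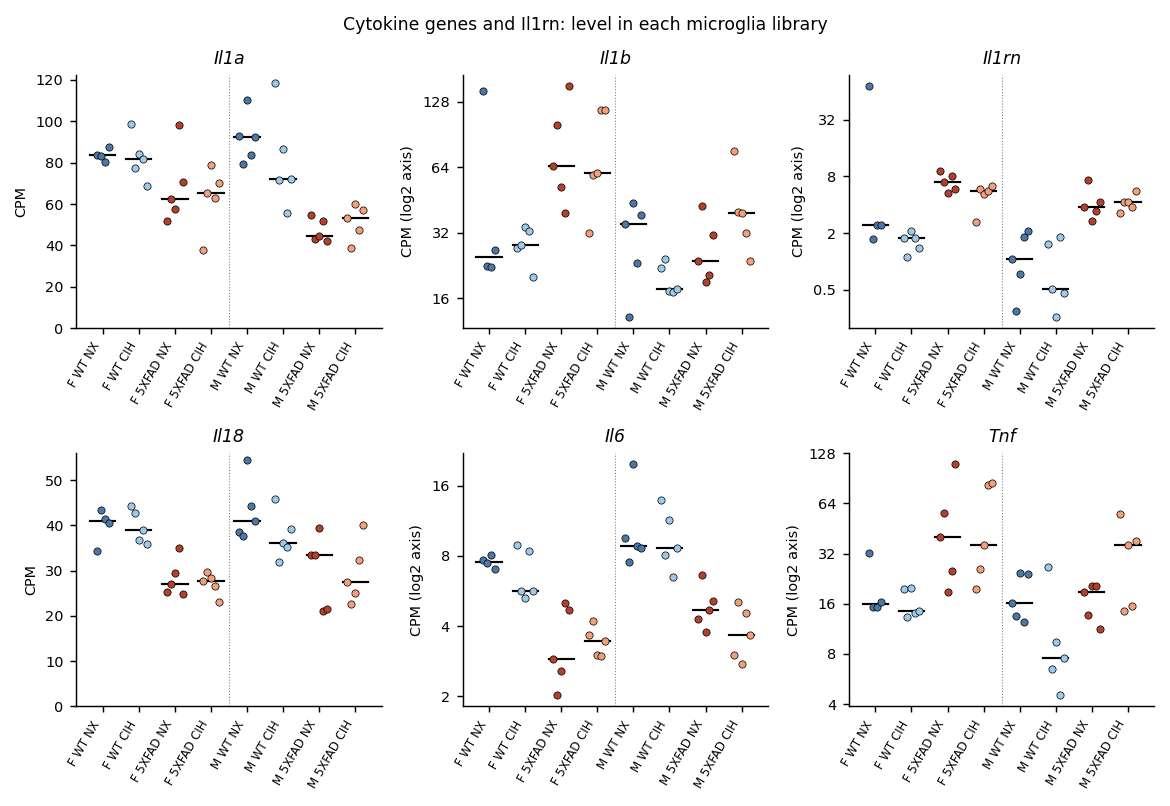
Level of the cytokine genes and Il1rn in each library, in CPM, by group (F, females; M, males); points are libraries, lines are group medians, and the dotted line parts the tables. The axis is logarithmic for Il1b, Il1rn, Il6 and Tnf and starts at 0 for Il1a and Il18. F WT NX 1 is the high WT NX point of Il1b and Il1rn, and Il6 lies lower in every 5XFAD group than in its WT group.

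Il1rn encodes the antagonist that blocks the interleukin-1 receptor. It was low in WT microglia and higher in 5XFAD microglia, with no overlap between the genotypes in 3 of the 4 comparisons. Under CIH it was at 1.78, 1.11, 2.09, 1.77 and 1.37 CPM in F WT CIH and at 2.59, 5.93, 5.15, 5.63 and 6.33 CPM in F 5XFAD CIH (fold 3.15, log2FC 1.65 ± 0.25 (SE), FDR = 0.000118), and with all 4 groups in one fit this did not pass (FDR = 0.108). In males it was at 1.52, 0.501, 0.258, 1.82 and 0.461 CPM in M WT CIH and at 3.24, 4.26, 4.24, 3.77 and 5.59 CPM in M 5XFAD CIH (fold 4.69, log2FC 2.23 ± 0.46 (SE), FDR = 0.00117). Male WT libraries held as few as 4 reads of Il1rn, which limits the precision of these folds. In M WT NX it was at 1.06, 0.295, 0.738, 1.82 and 2.08 CPM and in M 5XFAD NX at 3.78, 7.31, 2.70, 3.45 and 4.30 CPM (fold 3.64, log2FC 1.86 ± 0.49 (SE), FDR = 0.0189). This rise no longer passed without M 5XFAD NX 2, the highest 5XFAD library (log2FC 1.59, FDR = 0.0585). In the female NX groups a single library decided the direction. F WT NX was at 73.4, 1.72, 2.43 and 2.45 CPM and F 5XFAD NX at 9.24, 6.96, 5.39, 8.17 and 5.88 CPM (log2FC -1.45 ± 1.01 (SE), FDR = 0.330). Without F WT NX 1 the log2FC was 1.72 with FDR = 0.0282. F 5XFAD NX 4, which resembled WT on the first principal component, was at 8.17 CPM of Il1rn, inside the range of the other 5XFAD NX females.

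Il6 encodes interleukin-6, a cytokine of the acute phase response. It was lower in every 5XFAD library than in every WT library of the same sex and air, in all 4 comparisons. In females it was at 7.68, 7.46, 8.06 and 7.02 CPM in F WT NX and at 2.90, 2.03, 2.56, 5.02 and 4.69 CPM in F 5XFAD NX (log2FC -1.08 ± 0.29 (SE), FDR = 0.0400). The groups did not overlap, yet FDR stayed below 0.05 in only 1 of the 9 cases with a library left out, without F 5XFAD NX 4 (0.00187 there and up to 0.102 otherwise), and it was 0.0550 with library sizes in place of TMM factors. Under CIH Il6 was at 8.94, 5.67, 5.30, 8.37 and 5.65 CPM in F WT CIH and at 3.67, 4.20, 3.00, 2.98 and 3.46 CPM in F 5XFAD CIH (log2FC -0.96 ± 0.18 (SE), FDR = 0.000523). In males it was at 9.53, 7.50, 19.8, 8.82 and 8.61 CPM in M WT NX and at 4.28, 6.63, 3.77, 4.71 and 5.14 CPM in M 5XFAD NX (log2FC -1.13 ± 0.29 (SE), FDR = 0.0152). M WT NX 3 stood apart at 19.8 CPM, and without it the log2FC was -0.80 (FDR = 0.0331). Under CIH it was at 14.0, 8.07, 11.4, 6.47 and 8.64 CPM in M WT CIH and at 3.00, 5.09, 2.75, 4.57 and 3.66 CPM in M 5XFAD CIH (log2FC -1.31 ± 0.25 (SE), FDR = 0.000647).

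Il1a encodes interleukin-1 alpha, an alarmin that signals without cleavage by caspase-1. It fell in 5XFAD males, with M WT NX at 92.9, 79.3, 110.5, 83.7 and 92.4 CPM and M 5XFAD NX at 54.5, 42.9, 44.6, 51.9 and 42.0 CPM (log2FC -0.95 ± 0.12 (SE), FDR = 0.000187). No M 5XFAD NX library reached the WT range. Under CIH it was at 55.5 to 119 CPM in M WT CIH and at 38.5 to 60.1 CPM in M 5XFAD CIH (log2FC -0.63 ± 0.18 (SE), FDR = 0.00986). In females it fell under CIH, with 68.7 to 98.7 CPM in F WT CIH and 37.9 to 78.7 CPM in F 5XFAD CIH (log2FC -0.38 ± 0.15 (SE), FDR = 0.0448), and FDR stayed below 0.05 in 3 of the 10 cases with a library left out. The female NX groups (80.5 to 87.6 CPM in WT and 51.9 to 98.2 CPM in 5XFAD) did not pass (log2FC -0.25 ± 0.20 (SE), FDR = 0.401). Without F 5XFAD NX 4, the highest 5XFAD library, the log2FC was -0.48 (FDR = 0.00298). Il1a and Il1b, which both lie on chromosome 2 and code for ligands of the same receptor, thus moved in opposite directions under CIH in both sexes.

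Il18 encodes interleukin-18, which microglia keep as a precursor. It fell in 5XFAD females under CIH without overlap, from 35.9 to 44.2 CPM in F WT CIH to 23.1 to 29.8 CPM in F 5XFAD CIH (log2FC -0.55 ± 0.08 (SE), FDR = 8.29e-05). The other comparisons did not pass, with log2FC -0.45 (FDR = 0.0650) in females under NX, -0.52 (FDR = 0.0786) in males under NX and -0.32 (FDR = 0.0942) in males under CIH. In males FDR passed in 1 of 10 cases with a library left out under NX (0.0401, without M 5XFAD NX 3) and in 1 of 10 under CIH (0.0119, without M 5XFAD CIH 5), and with library sizes in both (0.00479 and 0.000417). Without F 5XFAD NX 4 the female NX value was -0.60 with FDR = 0.000767.

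Of the inflammasome genes, Gsdmd fell in 5XFAD microglia in 3 of the 4 genotype comparisons, Casp1 rose in 1, and Nlrp3 and Pycard passed in none, Nlrp3 narrowly in females under NX. Gsdmd was at 238, 236, 217, 207 and 213 CPM in F WT CIH and at 133, 139, 139, 131 and 131 CPM in F 5XFAD CIH (fold 0.607, log2FC -0.72 ± 0.06 (SE), FDR = 2.96e-07). In males it was at 206, 208, 234, 215 and 245 CPM in M WT NX and at 158, 127, 157, 121 and 134 CPM in M 5XFAD NX (fold 0.636, log2FC -0.65 ± 0.11 (SE), FDR = 0.00123). It was at 269, 209, 236, 221 and 203 CPM in M WT CIH and at 145, 119, 166, 166 and 138 CPM in M 5XFAD CIH (fold 0.659, log2FC -0.60 ± 0.11 (SE), FDR = 0.000509). Genotypes did not overlap in any of these groups, nor in the female NX groups, where WT was at 204 to 230.0 CPM and 5XFAD at 125 to 189 CPM. The female NX difference fell short of the threshold (log2FC -0.53 ± 0.16 (SE), FDR = 0.0552) and passed it without F 5XFAD NX 4, the highest 5XFAD library (log2FC -0.70, FDR = 0.000255). Gsdmd, Tnf and Il18 each passed FDR in females under NX under 4 of 9 other settings. Gsdmd was not a DEG anywhere, because its absolute log2FC stayed below 1.

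Casp1, the gene of caspase-1, rose in 5XFAD males under CIH, from 47.7, 44.2, 42.9, 44.2 and 42.4 CPM in M WT CIH to 57.7, 53.0, 65.0, 56.2 and 68.4 CPM in M 5XFAD CIH, without overlap (log2FC 0.47 ± 0.09 (SE), FDR = 0.000920). Library scaling bears on this value. With library sizes in place of TMM factors the log2FC was 0.09 (FDR = 0.390), in a comparison where that scaling moved the median of all genes from -0.06 to -0.43. In the other genotype comparisons Casp1 did not pass with all libraries, with log2FC 0.22 in females and 0.05 in males under NX and 0.14 in females under CIH (FDR = 0.147, 0.823 and 0.0714), and with library sizes the last of these was -0.06 and the male NX value -0.15. Without F 5XFAD NX 4 the female NX value passed (log2FC 0.27, FDR = 0.0135). In females under CIH Casp1 passed in 1 of 10 cases with a library left out (FDR = 0.0280) and under 1 of 8 other settings (FDR = 0.0476). Pycard, the gene of the adaptor, passed in none of the 4 comparisons with all libraries, with log2FC from -0.03 to 0.34 and FDR from 0.0644 to 0.924, and under CIH its sign turned with library sizes (-0.16 in females and -0.05 in males). In males under CIH Pycard passed in 2 of 10 cases with a library left out (log2FC 0.20 to 0.45, FDR = 0.0110 to 0.158, with the lowest log2FC without M 5XFAD CIH 5) and under 1 of 8 other settings (FDR = 0.0365). Nlrp3, the gene of the sensor, did not pass in any of them by the edgeR quasi-likelihood test on all libraries. Its largest difference was in the female NX groups, where WT was at 198, 258, 141 and 200.0 CPM and 5XFAD at 117, 99.8, 112, 77.9 and 185 CPM (log2FC -0.73 ± 0.23 (SE), FDR = 0.0561), and the highest 5XFAD library lay inside the WT range. This call was not settled, since FDR was below 0.05 under 7 of 9 other settings (0.0167 to 0.0822 over the 9). It was also below 0.05 without F 5XFAD NX 4 (log2FC -0.64, FDR = 0.0334) and without F 5XFAD NX 5 (log2FC -0.94, FDR = 0.0487). In the other comparisons its log2FC was 0.20 in females under CIH (FDR = 0.322, and 0.40 with FDR = 0.00419 without F WT CIH 1), -0.32 in males under NX (FDR = 0.153) and -0.27 in males under CIH (FDR = 0.336). This last value passed under 1 of 8 other settings (FDR = 0.0297) and was -0.01 without M WT CIH 1 (FDR = 0.956).

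**Figure D2:**
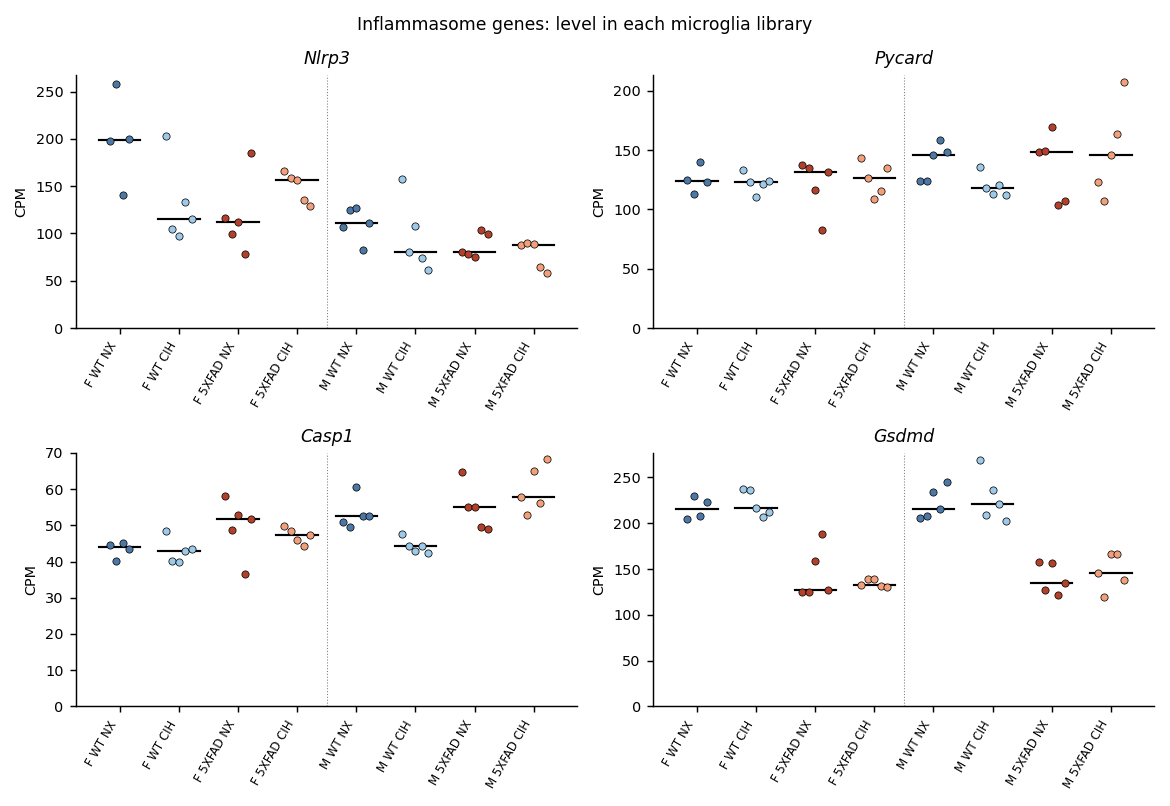
Level of Nlrp3, Pycard, Casp1 and Gsdmd in each library, in CPM on axes from 0, by group; points are libraries and lines are group medians. Gsdmd shows 5XFAD libraries below all WT libraries in both sexes, and the groups of Pycard overlap throughout.

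Genotype groups did not overlap for 2 of the 10 genes in females under NX (Il6 and Gsdmd), against 14.8% of all genes tested, and for 4 of 10 in females under CIH (Il1rn, Il18, Il6 and Gsdmd), against 36.9%. In males they did not overlap for 4 of 10 under NX (Il1a, Il1rn, Il6 and Gsdmd), against 16% of all genes, and for 4 of 10 under CIH (Il1rn, Il6, Casp1 and Gsdmd), against 36.2%. The shares under CIH were close to those of all genes. The CIH and NX comparisons of a sex use different libraries. Of the 10 genes, Il6 and Gsdmd had groups apart in both airs and both sexes, and the share of all genes with this property was not counted.

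The second question was what CIH does within a genotype. None of the 10 genes became a DEG. In females 0% of all genes were DEGs and 0% passed FDR alone in WT, and the shares in 5XFAD were 0% and 0%. At an unadjusted p below 0.05 edgeR found 565 genes in WT and 470 in 5XFAD females, and DESeq2 called 0 DEGs in both. The values of Il1b in F 5XFAD NX and F 5XFAD CIH, given with the genotype comparison, overlapped over most of their range (log2FC -0.06 ± 0.40, SE), as did those of Tnf (0.01 ± 0.52). Among the 10 genes the lowest unadjusted p of edgeR in 5XFAD females was that of Il1rn (log2FC -0.48, unadjusted p = 0.0681, FDR = 0.998). In WT females Nlrp3 was at 198, 258, 141 and 200.0 CPM in NX and 203, 105, 97.2, 134 and 115 CPM in CIH (log2FC -0.58 ± 0.20, unadjusted p = 0.0152, FDR = 0.960). The log2FC of Il1rn in WT females, -3.59 (FDR = 0.960), rested on F WT NX 1 and was -0.41 without it.

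In WT males, Il1b and Casp1 fell under CIH, and both calls depended on the setting. Of all genes 2.51% were DEGs and 28.6% passed FDR alone in this comparison, and 2 of the 10 genes passed FDR alone. Il1b was at 35.2, 13.2, 43.8, 23.3 and 38.7 CPM in M WT NX and at 22.1, 24.3, 17.3, 17.2 and 17.6 CPM in M WT CIH (log2FC -0.66 ± 0.24 (SE), FDR = 0.0484). The groups overlapped, since M WT NX 2 was the lowest library of both, and FDR stayed below 0.05 in 3 of the 10 cases with a library left out and was 0.0823 with library sizes. Neutrophil and monocyte markers were also lower under CIH in WT males. Of the 8 neutrophil markers 6 were DEGs with lower levels under CIH, their sum going from 232 to 1235 CPM in M WT NX to 110.0 to 328 CPM in M WT CIH, and 3 of the 5 monocyte markers were lower DEGs, with sums of 40.9 to 105 CPM and 29.0 to 51.9 CPM. Neutrophils and monocytes express Il1b, and their part in its fall was not tested. The median log2FC of the 8 neutrophil markers was -1.56 here and -1.60 in 5XFAD males, where the log2FC of Il1b was 0.62. The monocyte markers had medians of -1.32 and -0.33. In WT males 3 of 8 microglia and 3 of 7 border macrophage markers also fell by FDR (all genes, 28.6%). There 1 astrocyte and 1 oligodendrocyte marker were higher DEGs. In bulk RNA, fewer cells of a type and less RNA per cell cannot be told apart. Casp1 was at 51.0, 49.4, 60.7, 52.5 and 52.6 CPM in M WT NX and at 47.7, 44.2, 42.9, 44.2 and 42.4 CPM in M WT CIH, without overlap (log2FC -0.28 ± 0.08 (SE), FDR = 0.0201). Without M WT CIH 3 it no longer passed (FDR = 0.0538), nor did it with library sizes (log2FC -0.18, FDR = 0.107). Of 8 other settings, 3 kept Il1b below an FDR of 0.05 (3.90e-05 to 0.153 over the 8) and 4 kept Casp1 below it (0.0109 to 0.133), and with all 4 groups in one fit 0 genes passed. Tnf had a larger log2FC of -0.75 that did not pass (FDR = 0.147), and it was -1.38 (FDR = 0.00103) without M WT CIH 1. That library also held the highest Il1a, Nlrp3 and Pycard of its group, and without it the falls of Il1a (log2FC -0.37, FDR = 0.0354), Nlrp3 (-0.46, FDR = 0.0322) and Pycard (-0.28, FDR = 0.0245) passed. With all libraries these were -0.20, -0.22 and -0.24 (FDR = 0.375, 0.448 and 0.0567).

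In 5XFAD males 0% of all genes were DEGs and 0% passed FDR alone, with 473 genes at an unadjusted p below 0.05 in edgeR and 1 DEG by DESeq2. Tnf was at 18.8, 13.8, 20.4, 20.6 and 11.3 CPM in M 5XFAD NX and at 55.1, 14.5, 36.2, 15.6 and 38.1 CPM in M 5XFAD CIH. The 3 highest CIH libraries lay above all NX libraries and the other 2 inside their range (log2FC 0.91 ± 0.34, unadjusted p = 0.0204, FDR = 0.995). Il1b was at 23.7, 42.4, 18.9, 20.6 and 31.4 CPM in M 5XFAD NX and at 76.2, 39.9, 39.5, 31.9 and 23.9 CPM in M 5XFAD CIH (log2FC 0.62 ± 0.31, unadjusted p = 0.0664, FDR = 0.995). The other 8 genes had log2FC between -0.36 and 0.13. The 20 immediate early and stress genes that digestion of tissue can raise summed to 2532 to 3789 CPM in M 5XFAD NX and 3849.5 to 6628 CPM in M 5XFAD CIH, without overlap (median log2FC 0.50, with 0 of 20 past FDR), and their part in these values was not tested.

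**Figure D3:**
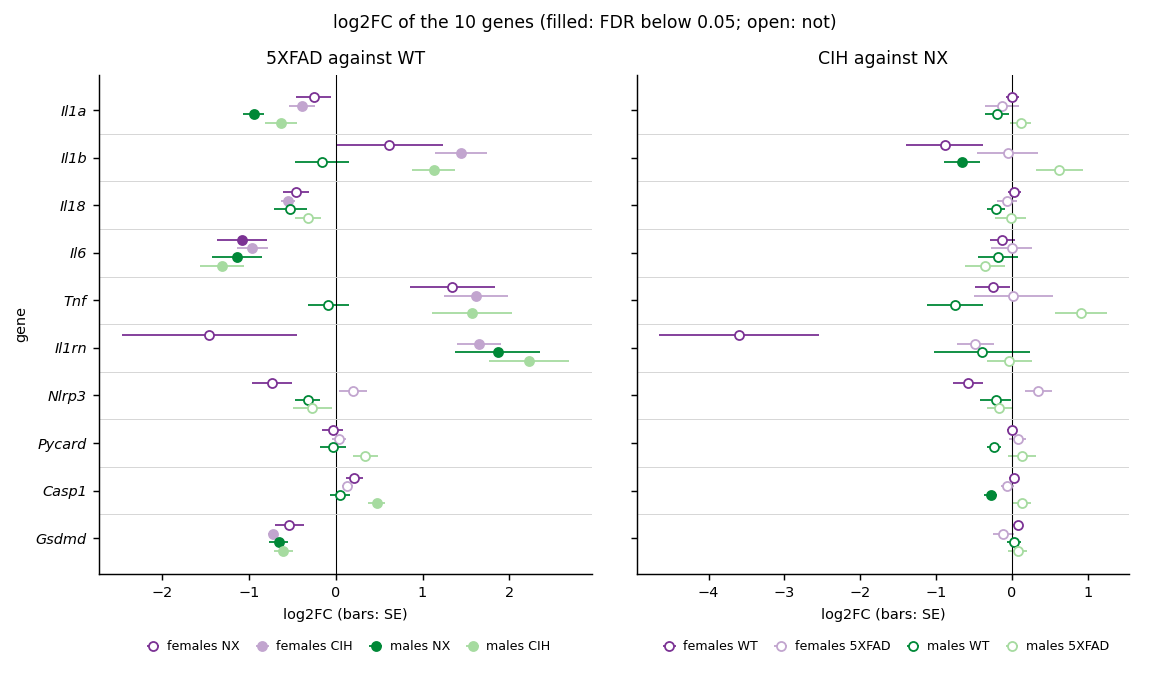
log2FC of each gene in the 4 comparisons of genotype (left) and of treatment (right); bars are SE, filled points passed FDR 0.05. On the left panel, Il1b, Tnf and Il1rn lie to the right under CIH, and Il6, Gsdmd, Il1a and Il18 lie to the left in all 4 comparisons. The only filled points on the right panel are Il1b and Casp1 in WT males.

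Whether CIH acted differently in the genotypes was tested as an interaction over the 4 groups of a sex, and none of the 10 genes passed. Over all genes 0% were called and 0% passed FDR alone in females, with 589 genes at an unadjusted p below 0.05 and 0 called by DESeq2. In males 0% were called and 0% passed FDR alone, with 3857 genes at an unadjusted p below 0.05 and 381 called by DESeq2. In males the interaction of edgeR was 1.28 ± 0.42 on the log2 scale for Il1b (unadjusted p = 0.00618, FDR = 0.121), 1.65 ± 0.57 for Tnf (unadjusted p = 0.00831, FDR = 0.123) and 0.41 ± 0.14 for Casp1 (unadjusted p = 0.00786, FDR = 0.122). For each of the 3 genes the log2FC of CIH was negative in WT and positive in 5XFAD males. DESeq2 gave FDR = 0.0436 for Il1b and 0.0463 for Tnf and 0.0422 for Casp1, and Casp1 also passed without M 5XFAD NX 1 (FDR = 0.0471). The isolation response genes had a median interaction of 0.61, beside -0.04 for all genes. In females the largest interactions were those of Nlrp3 (0.91 ± 0.30, unadjusted p = 0.00657, FDR = 0.952) and Il1rn (3.09 ± 1.11, unadjusted p = 0.0119, FDR = 0.952). Without F WT NX 1 the value of Il1rn was -0.08 (FDR = 0.999).

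Il1r1, the signalling receptor of interleukin-1, and Il18bp, the secreted binding protein of interleukin-18, were the only DEGs of the 17 genes of the interleukin-1 and interleukin-18 receptor list in 3 of the 4 genotype comparisons, both higher in 5XFAD. The DEGs were 2 of 16 tested in females under NX and 3 of 15 under CIH, and 2 of 16 in males under both, beside 5.99%, 13%, 8.25% and 18.7% of all genes. By FDR 2 rose and 1 fell in females under NX and 4 rose and 4 fell under CIH, and in males 3 rose and 0 fell under NX and 3 rose and 3 fell under CIH. In females under CIH Sigirr, a receptor that dampens this signalling, was also a DEG, with lower levels in 5XFAD (log2FC -1.06 ± 0.33 (SE), FDR = 0.0155). Il1r1 was at 3.27 to 5.72 CPM in F WT CIH and 20.4 to 24.9 CPM in F 5XFAD CIH (log2FC 2.35 ± 0.14 (SE), FDR = 2.00e-08). In males under CIH it was at 2.26 to 4.12 CPM in WT and 10.0 to 19.3 CPM in 5XFAD (log2FC 2.39 ± 0.22 (SE), FDR = 9.30e-07), and under NX its log2FC was 1.87 in females (FDR = 0.0219) and 2.14 in males (FDR = 9.22e-05). Endothelial cells also express Il1r1, and the endothelial markers were at summed levels of 44.7 to 118 CPM in F WT CIH, 148 to 223 CPM in F 5XFAD CIH, 59.2 to 114 CPM in M WT CIH and 105 to 155 CPM in M 5XFAD CIH, with 1 of the 5 a higher DEG (Flt1) and 1 a lower DEG (Pecam1) in each genotype comparison. The median log2FC of the 5 was -1.17 in females under NX and -0.63 under CIH, and 0.26 in males under NX and -0.05 under CIH. Their part in the rise of Il1r1 was not tested. Il18bp had log2FC of 1.10 and 1.02 in females under NX and CIH and of 1.07 and 1.36 in males (FDR = 0.0481, 0.000982, 0.00367 and 0.000204). Il18bp shares 2.64% of its exon bases with Numa1 on the other strand.

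Among 19 other inflammasome sensors and regulators, falls outnumbered rises in 5XFAD microglia under CIH. Of the 15 tested in each sex, 4 rose and 9 fell in females and 3 rose and 9 fell in males, beside the 51.9% and 49% of all genes that passed FDR. The median log2FC of those tested was -0.32 in females and -0.67 in males, beside -0.02 and -0.06 for all genes. Nlrp1b, a sensor that is activated by proteolysis, was at 185 to 264 CPM in F WT CIH and 80.2 to 117 CPM in F 5XFAD CIH (log2FC -1.15 ± 0.12 (SE), FDR = 4.16e-06), and at 102 to 158 CPM in M WT CIH and 21.1 to 34.7 CPM in M 5XFAD CIH (log2FC -2.13 ± 0.15 (SE), FDR = 5.94e-08). Its near copy Nlrp1a fell in males (log2FC -1.21 ± 0.19 (SE), FDR = 0.000113), and since reads can be split between these paralogs by the counting, both values are uncertain. Txnip, which binds thioredoxin and NLRP3, was a DEG in females (log2FC -1.04 ± 0.08 (SE), FDR = 2.54e-07), as was Nlrc4, the partner that NAIP sensors of bacterial proteins recruit (log2FC -1.40 ± 0.32 (SE), FDR = 0.00236). Txnip shares 19.4% of its exon bases with the antisense gene Gm15441. Under NX no gene of this list was a DEG, with 1 rising and 4 falling by FDR in females and 2 rising and 4 falling in males, beside the 13.9% and 17.8% of all genes that passed FDR.

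The lists of downstream signalling were counted in the same way. Of the 6 genes of the interleukin-6 receptor list, 1 rose and 1 fell in females under CIH and 2 fell in males, and none was a DEG. Of the 11 genes of the tumor necrosis factor receptor list, 2 rose and 4 fell in females and 3 rose and 4 fell in males under CIH, without a DEG. Of the 14 NF-kB subunits and inhibitors, 3 rose and 3 fell in females and 2 rose and 5 fell in males under CIH. These counts stand beside the 51.9% of all genes in females and 49% in males that passed FDR. The only DEG among the NF-kB genes was Rel, a subunit of NF-kB, in males, at 82.2 to 122 CPM in M WT CIH and 33.6 to 50.5 CPM in M 5XFAD CIH (log2FC -1.23 ± 0.13 (SE), FDR = 3.40e-06). Within a genotype, CIH made no gene of these 5 lists a DEG in either sex, where in WT males 2.51% of all genes were DEGs and 28.6% passed FDR, and in the other 3 comparisons 0 genes did. By FDR in WT males, 3 inflammasome genes rose and 2 fell of 16 tested, and 1 gene of the interleukin-1 and interleukin-18 list rose of 16. Of the 6 interleukin-6 genes 3 rose, of the 11 tumor necrosis factor genes 3 rose and 1 fell, and of the 14 NF-kB genes 3 rose and 3 fell.

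**Figure D4:**
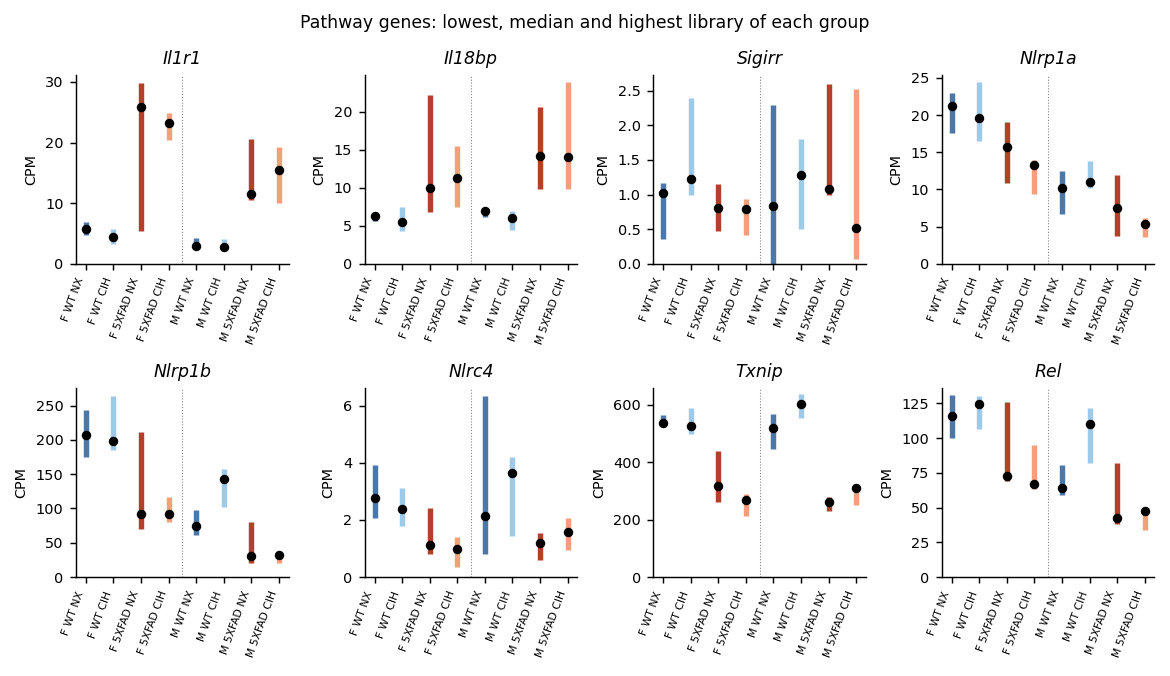
Level of the pathway genes that were DEGs in at least 1 genotype comparison, in CPM on axes from 0, by group; bars run from the lowest to the highest library and points are medians. Il1r1 and Il18bp lie higher and Nlrp1b, Txnip and Rel lower in 5XFAD than in WT under CIH, and Sigirr and Nlrc4 are the least abundant by CPM.

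Enzymatic digestion itself raises immediate early genes in microglia, and Tnf and Il1b can rise with them. The 20 genes of this isolation response summed to 4636 to 8666 CPM in F WT CIH and 3380.1 to 6661 CPM in F 5XFAD CIH, and to 4125 to 5647 CPM in M WT CIH and 3849.5 to 6628 CPM in M 5XFAD CIH. By FDR 3 of them rose and 1 fell in females and 6 rose and 1 fell in males under CIH, beside the 51.9% and 49% of all genes that passed. Their median log2FC was -0.06 in females and -0.20 in males, beside -0.02 and -0.06 for all genes. Among those that rose were Egr2 (log2FC 1.33 in females and 1.63 in males) and Atf3 in males (1.67). Under NX 4 rose and 0 fell in females, and 2 rose and 8 fell in males (all genes, 13.9% and 17.8%), with sums of 3913 to 4923 CPM in M WT NX and 2532 to 3789 CPM in M 5XFAD NX. The part of the isolation response in the rise of Il1b and Tnf was not tested. Under CIH 3 of the 7 neutrophil markers tested fell in females and 3 of 8 in males, and none rose. Of the 5 monocyte markers 2 fell and none rose in females, and in males Ccr2 fell (log2FC -0.91 ± 0.20 (SE), FDR = 0.00175), Ly6c2 rose (log2FC 1.04 ± 0.31 (SE), FDR = 0.0120) and the median log2FC was 0.34. The part of these cells in the rise of Il1b and Tnf was not tested either. Of the 7 border macrophage markers 6 fell in females and 3 in males under CIH, and of the 7 T and NK cell markers 1 of 3 tested rose in females and 4 of 5 tested in males, where 51.9% and 49% of all genes passed FDR. Astrocyte markers summed to 5.26 to 34.5 CPM in F WT CIH and 115 to 539.7 CPM in F 5XFAD CIH, with 3 of 5 rising (median log2FC 1.84), and to 11.3 to 74.9 CPM in M WT CIH and 122 to 536 CPM in M 5XFAD CIH, with 1 rising and 1 falling (median 1.09). Of the oligodendrocyte markers 1 of 4 tested rose and 1 fell in females and 2 of 5 rose in males. The neuron list had 1 of 4 tested falling in females and 0 of 5 changing in males. Under NX 6 of 7 border macrophage markers fell in females and 5 of 7 in males, and 1 of 5 astrocyte markers rose in females and 3 of 5 in males. Of the oligodendrocyte markers 1 of 4 fell in females and 3 of 5 rose in males. In each sex 1 T and NK cell marker rose and 1 monocyte marker fell, and in males 1 neuron marker fell. No neutrophil marker passed, and 13.9% and 17.8% of all genes did. The part of these cells in the results of the 10 genes was not tested.

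Levels were also followed from library to library, as deviations of log2 CPM from the group mean, over 19 female and 20 male libraries that share depth and isolation effects. This is a description with no test. Tnf and Il1b went together in females (r = 0.84, and 0.92 over the 17 libraries without F WT NX 1 and F 5XFAD NX 4) and had a lower value in males (r = 0.26). Tnf and Il1a had r = 0.87 in males and 0.27 in females, and the female value was 0.55 without the 2 libraries. Among 12370 genes, those most like Tnf in both tables were Ier3 (r = 0.84 in females and 0.81 in males), Osm (r = 0.90 in females and 0.77 in males) and Ccl3 (r = 0.76 in females and 0.74 in males). Ier3 is an immediate early gene, Osm codes for oncostatin M and Ccl3 for a chemokine. Those most like Il1b were Adam8 (r = 0.68 in females and 0.66 in males), Osm (r = 0.84 in females and 0.65 in males) and Cxcr4 (r = 0.68 in females and 0.65 in males), and the female values of Adam8 and Cxcr4 rested on the same 2 libraries, since they were -0.19 and 0.19 without them.

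**Figure D5:**
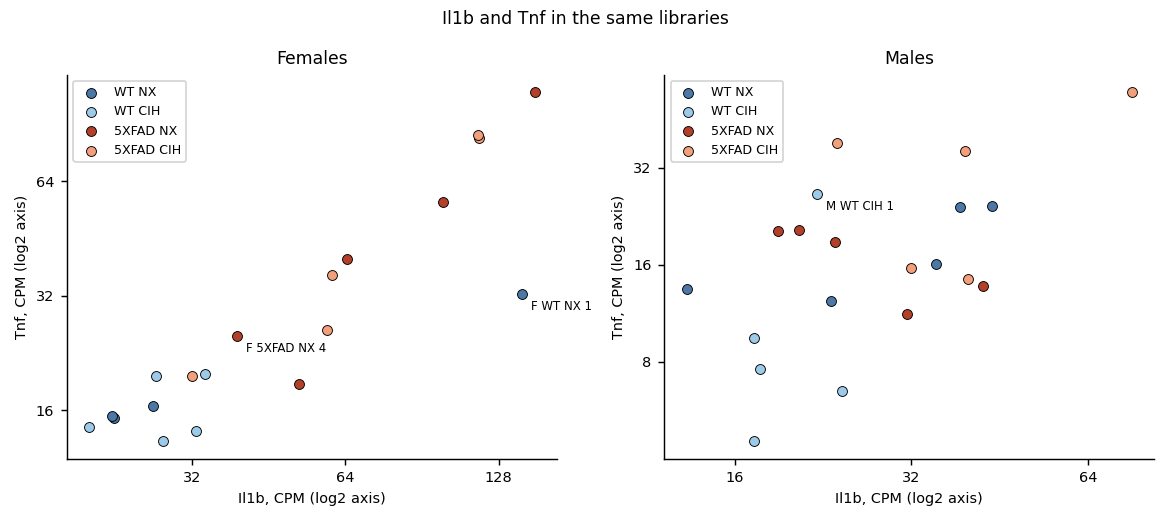
Tnf against Il1b in each library, in CPM on logarithmic axes, for females (left) and males (right), coloured by group. In females F WT NX 1 lies off the line of the other libraries, with Il1b at 142 CPM and Tnf at 32.3 CPM.

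The other members had neighbours of their own. Pycard was closest to Cox6c (r = 0.93 in females and 0.94 in males), Ly86 (r = 0.93 in females and 0.92 in males) and Fcer1g (r = 0.93 in females and 0.92 in males), which code for a respiratory chain subunit, a partner of a Toll-like receptor homologue and an Fc receptor chain. Casp1 was closest to Akr1b3 (r = 0.84 in females and 0.86 in males), Ptpn6 (r = 0.87 in females and 0.83 in males) and Ly86 (r = 0.90 in females and 0.83 in males), and Gsdmd to Tbkbp1 (r = 0.93 in females and 0.87 in males), Sirt7 (r = 0.90 in females and 0.85 in males) and Ppox (r = 0.94 in females and 0.85 in males). Without F WT NX 1 and F 5XFAD NX 4 the female values of Casp1 were 0.46 with Akr1b3 and 0.58 with Ptpn6. Casp1 and Pycard went together in both tables (r = 0.85 in females, 0.62 without the 2 libraries, and 0.71 in males), whereas Gsdmd and Pycard did so in males alone (r = 0.55, against -0.76 in females and -0.42 without the 2 libraries). Il18 was closest to Ltc4s (r = 0.80 in females and 0.79 in males), Nlrp3 to Peli2 (r = 0.73 in females and 0.77 in males), Il1a to Casp8 (r = 0.66 in females and 0.79 in males) and Il1rn to Rflnb (r = 0.76 in females and 0.67 in males). Without the 2 libraries the female values were 0.43 for Il1a with Casp8 and 0.43 for Il1rn with Rflnb. Il6 had the loosest neighbours, the closest being Trim13 (r = 0.61 in females and 0.53 in males).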

How the data were processed

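Bulk mRNA of isolated microglia was sequenced in 39 libraries. The authors deposited, for females and males in separate tables, raw read counts per gene and FPKM. HISAT2 and GRCm38 (mm10) are named in the submitters' processing notes, and the counting and its use of strand are not given in the sources used here. The deposited FPKM equal counts per length and library total in females and carry a further scaling per library of 0.83 to 1.26 in males. The deposited counts were compared with the quasi-likelihood test of edgeR 4.0.16 (R 4.3.3) on each pair of groups, after TMM scaling, for genes above 1 CPM in at least 3 samples, with Benjamini-Hochberg adjustment (FDR) over all genes tested. The interaction was fitted over the 4 groups of a sex. SE is the absolute log2FC divided by the square root of F.

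No library was left out. Alternatives were a likelihood ratio test, DESeq2 1.42.0, limma 3.58.1 on log2(FPKM + 1) and log2(FPKM + 0.1), library sizes in place of TMM, no filter, all 4 groups in one fit, a replicate block, FDR with no fold limit, and each library left out. Same-numbered libraries did not deviate together (correlations of -0.55 to 0.31, above 0.1 for every pair in no comparison), so their numbers do not pair them. The scripts were tested on simulated counts. The 10 genes, the pathway and marker lists and the tests were chosen with earlier results of these data known. All 10 genes are described. Of listed genes the text names DEGs and markers that bear on a result, and for likeness the 3 genes with the highest lower value of Pearson's r over both tables, or the first of them. Flt1, Pecam1, Ccr2, Ly6c2, P2ry12 and Aif1 were named after their values were seen.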

Additional observations from a re-analysis of the deposited data

Results flagged for a closer look

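In 80 groups of 4 or 5 libraries (10 genes in 8 groups), 6 had a library whose gap to the next was above Dixon's critical value, and chance alone marks about 1 in 20 groups. F WT NX 1 stood apart in 3 genes, with Il1b at 142 CPM (other libraries 22.3 to 26.8), Il1rn at 73.4 CPM (1.72 to 2.45) and Tnf at 32.3 CPM (15.3 to 16.4). M WT NX 3 stood apart in Il6 at 19.8 CPM (7.50 to 9.53) and in Casp1 at 60.7 CPM (49.4 to 52.6). M WT CIH 1 stood apart in Tnf at 26.6 CPM (4.55 to 9.50). No cause of these values was tested.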

How the results depend on the processing

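Of 800 values of the 10 genes under other settings, 745 kept their direction and side of the threshold (or were not called in either), 17 no longer passed, 37 passed newly and 1 turned sign with a call. With 1 library left out, the numbers were 1124, 24, 21 and 1 of 1170. Values that passed neither before nor after count as kept whatever their sign. Of the 745, 28 turned sign in this way, and of the 1124, 79 did. The reversals were those of Il1rn in the female NX groups, at 1.72 without F WT NX 1 (-1.83 to 1.72 with any 1 library left out) and at 1.62 without F WT NX 1 and F 5XFAD NX 4 together. That last setting was added after seeing the data.

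In the female NX groups, where 1 of the 10 genes was a DEG, the likelihood ratio test, DESeq2 and the fit of all 4 groups gave 2, library sizes gave 0, leaving out both libraries gave 4, and leaving out any 1 library gave 0 to 2. In the female CIH groups, FDR alone gave 7 in place of 3, and leaving out 1 library 3 to 4. With no filter, 1 gene in place of 0 was a DEG in WT females under CIH. In the male NX groups, FDR alone gave 4 in place of 2, limma with a pseudocount of 1 gave 0, and leaving out 1 library gave 1 to 3. In the male CIH groups, FDR alone gave 7 in place of 4, limma with a pseudocount of 1 gave 1, and leaving out 1 library gave 3 to 4. In WT males, FDR alone gave 2 in place of 0 and leaving out 1 library 0 to 1. DESeq2 and no filter each called 2 of the 10 in the male interaction. With a replicate block, 0 of the 10 genes were DEGs in the NX groups of females and of males. The block is not part of the design, since the numbers do not pair the libraries.

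Over all genes, the female NX groups had 869 DEGs, 2013 by FDR alone, 1330 with all 4 groups fitted, 457 by limma with a pseudocount of 1, 2072 without both libraries, 7 with the replicate block, and 27 (without F WT NX 3) to 1880 (without F 5XFAD NX 4) with 1 library left out. The female CIH groups had 1932, and 7739 by FDR alone and 1020 by limma. The male NX groups had 1224, and 2638 by FDR alone and 708 by limma. The male CIH groups had 2764, and 7248 by FDR alone and 1571 by limma. WT males had 376, and 4279 by FDR alone, 639 with no filter, 126 by limma, 0 with all 4 groups fitted and 621 without M WT NX 1. WT females had 0, and 21 with no filter, and 5XFAD males had 0, and 1 each by the likelihood ratio test and DESeq2. The male interaction had 0, and 175 by the likelihood ratio test, 381 by DESeq2, 790 with no filter and 478 without M 5XFAD NX 1. Library sizes moved the median log2FC of all genes to -0.17 and -0.21 in the female NX and CIH groups, -0.16 and -0.43 in the male groups and -0.21 in the male interaction. The causes were not tested. Depth limits Il1rn in males most, which had 4 to 96 reads.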
